A study of Mus musculus with 2 samples.

Results

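The machinery that moves newly made proteins into the endoplasmic reticulum (ER), trims, glycosylates and folds them and sends them on was followed across 2 single-cell libraries of mouse intestinal organoids through 40 genes. The members were taken by name: 40 of 40 listed genes were rows of the deposited table, which has 13373 genes, and all 40 were detected in 10% or more of cells in 1 library or the other. Both libraries came from Apc mutant organoids of strain C57Bl, aged 3-4 months per the labels. Apc is the tumour suppressor that restrains Wnt signalling, and which allele the organoids carry is not stated. The DBZ library was treated with DBZ, an inhibitor of the gamma-secretase that releases active Notch, and the DMSO library with its vehicle. A protocol text that both samples carry names 300 nM 4-OH-tam and 10 uM DBZ, so the groups follow the sample titles. How many mice or cultures gave the cells is not stated.

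Secreted and membrane proteins begin with a signal peptide that the signal recognition particle (SRP) binds on the ribosome. The SRP receptor hands the ribosome to the Sec61 channel, the signal peptidase cuts the peptide off, oligosaccharyltransferase adds a glycan, and chaperones and disulfide isomerases fold the chain in the ER lumen. Folded cargo leaves in vesicles coated by COPII. When unfolded protein builds up, the unfolded protein response, through XBP1, ATF6 and ATF4, raises many of these genes. Paneth, goblet and enteroendocrine cells of the gut are secretory cells with a large ER, and blocking Notch is known to push gut progenitors towards these fates.

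The DBZ library held 1241 cells with 16168229 UMIs (unique molecular identifiers, each counting 1 captured transcript). The DMSO library held 968 cells with 13083018 UMIs. The median cell had 10901 and 11183 UMIs. Levels are UMIs per 10000 UMIs of the cell, averaged over cells, and a change is log2 of DBZ over DMSO after adding 0.05 to each level. With 1 library per group there was no test: every difference is between these libraries, there is no replicate check, and the intervals give the error of counting UMIs alone. Hes1, a Notch target, was at 0.851 in the DBZ and 3.34 in the DMSO library. All 6 epithelial markers (Epcam, Cdh1, Cldn7 and 3 keratins) were present in both, with a mean summed level of 38.5 in the DBZ and 60.8 in the DMSO library. Of the cell barcodes, 3 occurred in both libraries.

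All 40 genes had a higher mean level in the DBZ library. Their summed level was 87.1 per 10000 with DBZ and 62.9 with DMSO, or 0.871% and 0.629% of a cell's UMIs, a log2 change of 0.47. The median change of the 40 was 0.42, beside 0.11 for the 8797 genes detected in 10% or more of cells in 1 library or the other. Of those genes 63.2% were higher with DBZ, and 38 of the 40 members lay above the median gene. A change of at least 0.5 was seen in 14 members upward, beside 12.7% of all genes, and in 0 members downward, beside 6.4%. The exact 95% counting interval of the pooled UMI ratio lay above 0 for 38 members and included 0 for Sec22b and Sec23a. The share of all genes with such an interval was not computed, so the count of 38 has nothing to stand beside.

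The size of the change depended on what the levels were divided by. Ribosomal protein genes took 19.4% of UMIs in the DBZ and 26.1% in the DMSO library. Per 10000 UMIs outside ribosomal protein and mitochondrial genes, the median gene lay near 0 and not at 0.11, the members' median was 0.30 and 38 of 40 were higher, beside 50.5% of all genes. Members at 0.5 or more then numbered 7, beside 9.01% of all genes. Centred on the median gene, they numbered 6, beside 7.84%. With 0.5 added to each level, which shrinks the changes of genes with low levels, 6 members were at 0.5 or more, beside 2.07%. In cells outside the defensin-rich set described further on, the numbers on these 3 scales were 7 (beside 10.8%), 7 (beside 8.26%) and 7 (beside 2.32%).

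**Figure D1:**
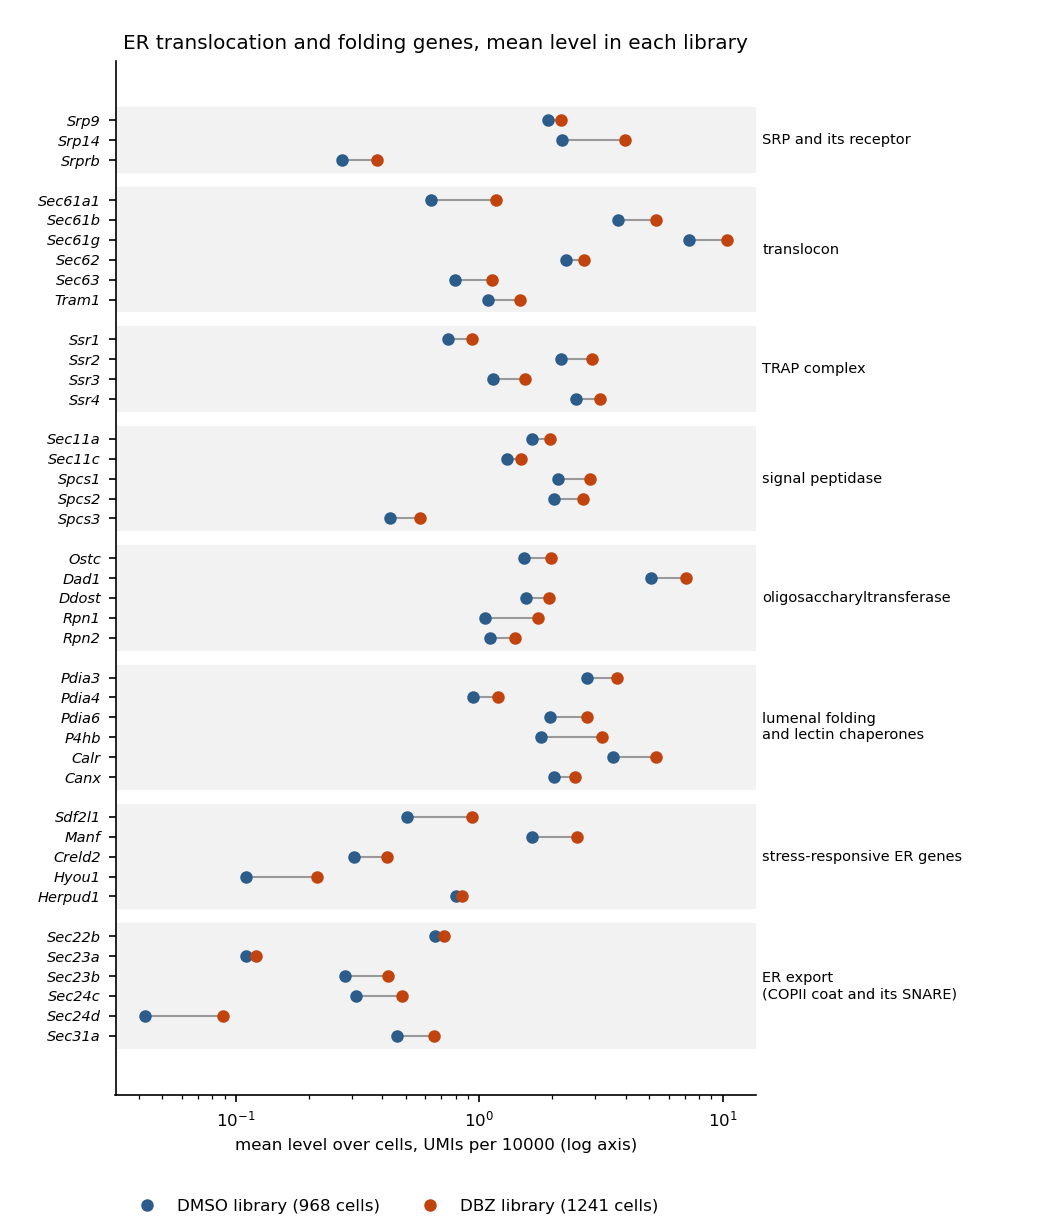
Mean level of each of the 40 genes in the DMSO and DBZ libraries, in UMIs per 10000 on a log axis, grouped by role. Each DBZ point lies to the right of its DMSO point, and the gap is narrow for Srp9, Herpud1, Sec22b and Sec23a.

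The genes that recognise the signal peptide differed among themselves. Srp14 (chromosome 2, 118475850 to 118479711, minus strand) encodes an SRP subunit that pairs with the product of Srp9. Srp14 was at 3.99 per 10000 with DBZ and 2.18 with DMSO, a change of 0.86 and a pooled log2 ratio of 0.86 (0.79 to 0.93). By the change of mean levels it was the highest of the 40, and by pooled UMIs Sec24d (1.18), Hyou1 (0.94) and Sec61a1 (0.93) were above it and P4hb (0.86) level with it. Its partner Srp9 was at 2.18 and 1.93, with a pooled ratio of 0.18 (0.11 to 0.26), and the intervals of the partners did not overlap. Srprb, the membrane subunit of the SRP receptor, was at 0.382 and 0.274 (change 0.42). Srp14 UMIs were in 80.3% of DBZ and 65.1% of DMSO cells after every cell was thinned to 5000 UMIs.

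The channel itself was higher as a group, with a summed translocon level of 22.2 with DBZ and 15.8 with DMSO (pooled ratio 0.47, 0.45 to 0.50). Sec61a1 (chromosome 6, 88503579 to 88518905, minus strand), the subunit that forms the pore, was at 1.18 and 0.635 (change 0.84), and was seen in 68.1% of DBZ and 51.4% of DMSO cells. Its small partners changed less. Sec61b was at 5.31 and 3.71 (change 0.51) and Sec61g at 10.4 and 7.29 (0.51), and their intervals (0.42 to 0.52 and 0.45 to 0.52) did not reach that of Sec61a1 (0.81 to 1.05). Sec62 and Sec63, which help chains enter the channel after translation, had changes of 0.24 and 0.47, and Tram1, a membrane protein beside the channel, had 0.42. The translocon-associated TRAP subunits lay close together, from 0.31 (Ssr1) through 0.32 (Ssr4) and 0.41 (Ssr2) to 0.43 (Ssr3).

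Some UMIs of Sec61g and Sec61b cannot be placed with certainty. Of the 91-base stretches in the last 500 bases of their annotated transcripts, 25.9% for Sec61g and 12.8% for Sec61b also occur in transcripts of other genes (Gm10177 and Gm11575, Gm10320 and Gm5870). The same held for 11.8% of those of Srprb and 0.269% of those of Spcs2, and for none of the other 36 members.

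The signal peptidase genes ran from 0.19 (Sec11c) and 0.24 (Sec11a), its 2 catalytic subunits, to 0.43 for Spcs1 and 0.39 for Spcs2, accessory subunits, with Spcs3 at 0.37. Among oligosaccharyltransferase subunits Rpn1, ribophorin I, stood apart with 1.75 and 1.06 per 10000 (change 0.70, pooled 0.74, 0.65 to 0.83). Its companion Rpn2 was at 1.41 and 1.11 (pooled 0.32, 0.23 to 0.41). Dad1 had 0.48, Ostc 0.36 and Ddost 0.31. All 10 genes of these complexes were higher with DBZ, beside 63.2% of all genes, and 1 of them, Rpn1, reached 0.5, a share near the 12.7% of all genes.

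Folding enzymes and lectin chaperones had a summed level of 18.6 with DBZ and 13.1 with DMSO. P4hb (chromosome 11, 120560298 to 120573253, minus strand), the founding protein disulfide isomerase, was at 3.19 and 1.80 (change 0.81) and was seen in 73.9% of DBZ and 56.5% of DMSO cells after thinning. Calr, calreticulin, which binds calcium and glycans in the lumen, was at 5.31 and 3.55 (0.57). Canx, its membrane-bound relative calnexin, was at 2.48 and 2.04 (0.28). Pdia6 had 0.50, Pdia3, which works with both lectins, 0.39 and Pdia4 0.32. The pooled intervals of P4hb (0.79 to 0.93), Calr (0.55 to 0.65) and Canx (0.23 to 0.37) did not overlap one another.

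The genes best known as targets of the unfolded protein response spread over most of the members' range. Sdf2l1 (chromosome 16, 17130138 to 17132383, minus strand), a partner of ER chaperones, was at 0.936 with DBZ and 0.508 with DMSO (change 0.82). Hyou1, an ER chaperone of the Hsp70 class, was at 0.216 and 0.111 (0.73, pooled 0.94 with 0.67 to 1.22). Manf, a secreted ER stress factor, was at 2.52 and 1.65 (0.59) and Creld2 at 0.418 and 0.307 (0.39). Herpud1, which serves ER-associated degradation, was at 0.852 and 0.800 (0.08). Its change turned to -0.047 per 10000 UMIs outside ribosomal protein and mitochondrial genes and to -0.023 when centred, while pooled UMIs gave 0.27 (0.15 to 0.39).

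Among ER export genes 3 of 6 reached 0.5, beside 12.7% of all genes. Sec24d, a cargo-binding COPII subunit, was at 0.0886 and 0.0423 (change 0.59, from 151 and 54 UMIs). These levels are close to the 0.05 added to each, and its pooled ratio was 1.18 (0.72 to 1.65). The 5 highest cells gave 10.4% of its DBZ and 16.3% of its DMSO mean, the highest such shares among the 40. Sec24c, another cargo-binding subunit, was at 0.480 and 0.312 (0.55). Sec23b had 0.51 and its paralog Sec23a 0.10, with a pooled interval for Sec23a of -0.19 to 0.45 and a change of -0.0014 and -0.0099 on those 2 scales. Sec31a of the outer coat had 0.46, and Sec22b, a membrane fusion protein of the ER-Golgi route, 0.11.

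**Figure D2:**
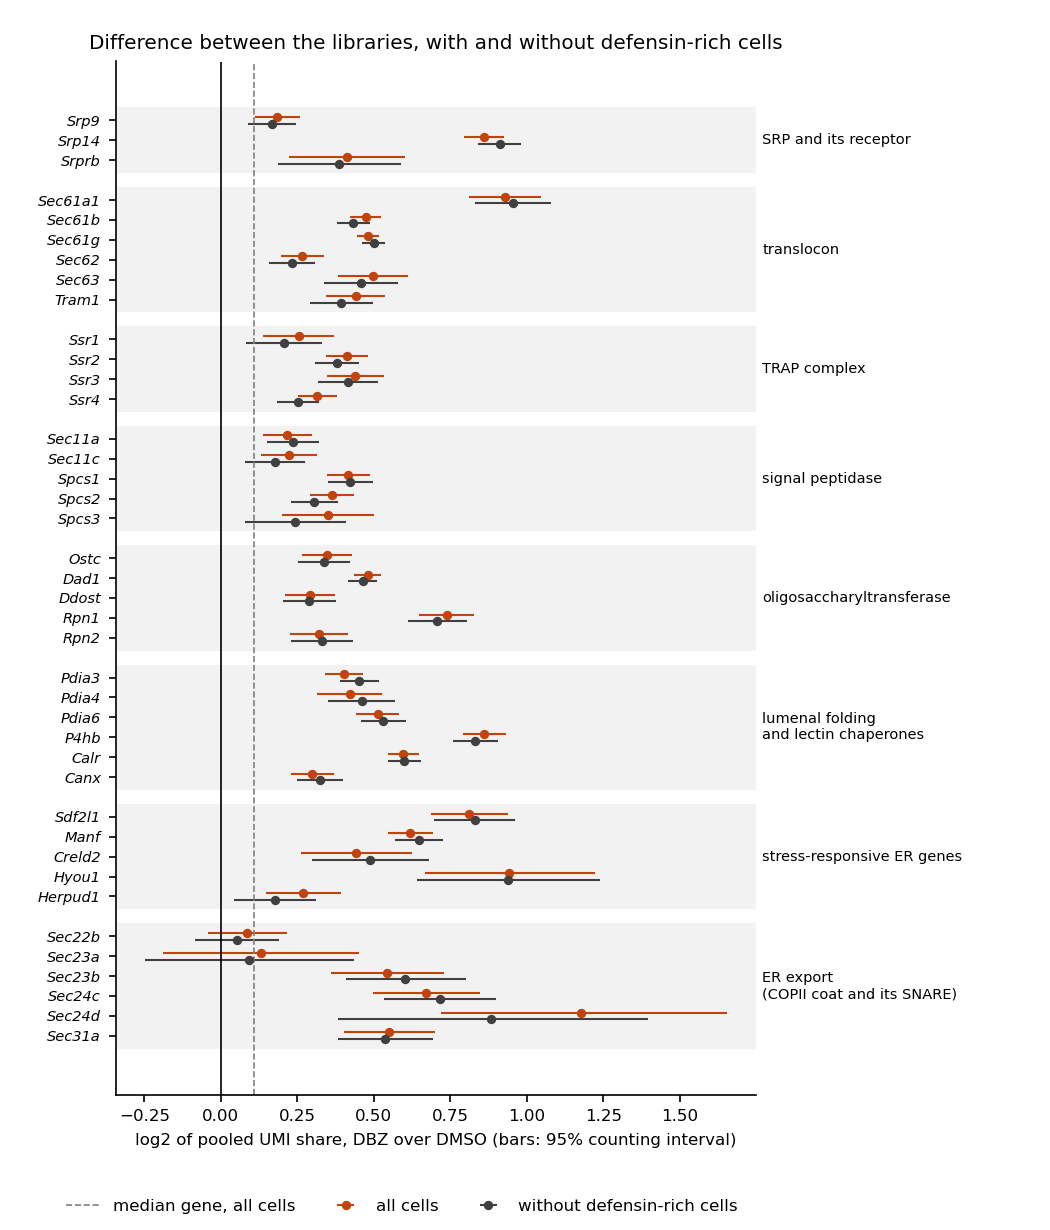
Log2 ratio of pooled UMI shares, DBZ over DMSO, for the 40 genes in all cells and without defensin-rich cells, with exact 95% counting intervals. The solid line is 0 and the dashed line the median gene at 0.11, and the paired points lie close together for nearly all members.

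Alpha-defensins, the antimicrobial peptides of Paneth cells, took very different shares of the libraries, so the members were compared with and without the cells that carry most of them. A cell was called defensin-rich when its 11 Defa genes summed to at least 100 UMIs per 10000. This is a range of a level and not a cell type. It took in 235 DBZ cells (18.9%, exact interval 16.8 to 21.2%) and 33 DMSO cells (3.41%, 2.36 to 4.75%). Near that boundary, 23 DBZ and 2 DMSO cells lay between 50 and 100, and 30 and 5 between 100 and 200. The other cells also differed, with a median defensin level of 13.5 in the DBZ and 1.94 in the DMSO library. Free RNA can give such a level in cells that do not make the transcripts, and its part was not tested.

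Leaving out the defensin-rich cells changed the members little. The summed level was then 86.0 in 1006 DBZ cells and 62.6 in 935 DMSO cells, a log2 change of 0.46 against 0.47 in all cells. The median change stayed at 0.42, all 40 were higher (beside 65.7% of all genes), and 12 were at 0.5 or more (beside 14.4%), with 0 at -0.5 or less (beside 5.73%). Those 12 were Srp14, Sec61a1, Sec61g, Rpn1, Pdia6, P4hb, Calr, Sdf2l1, Manf, Hyou1, Sec23b and Sec24c, while Sec61b (0.47) and Sec24d (0.42) were under 0.5. By the change of mean levels Srp14 was the highest at 0.91 and Herpud1 the lowest at 0.01, while by pooled UMIs Sec61a1 (0.96) and Hyou1 (0.94) were above Srp14 (0.91). The largest move of any member was that of Sec24d, by 0.17.

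The shift lay across the cells and not in a few of them. Without defensin-rich cells the lower quartile, median and upper quartile of the summed level were 66.9, 80.2 and 99.3 in the DBZ library and 51.6, 59.4 and 69.5 in the DMSO library. Of these DBZ cells, 87.9% lay above the DMSO median, and 82.0% did so after thinning. The DBZ cells also spread more widely, with a standard deviation over cells of 27.4 against 17.2. All 40 members were seen in a larger share of DBZ than DMSO cells after thinning of all cells, beside 61.5% of all genes. The difference was present at each depth, with a summed log2 change of 0.37 in cells under 8000 UMIs, 0.49 at 8000 to 12000, 0.49 at 12000 to 20000 and 0.41 above 20000.

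**Figure D3:**
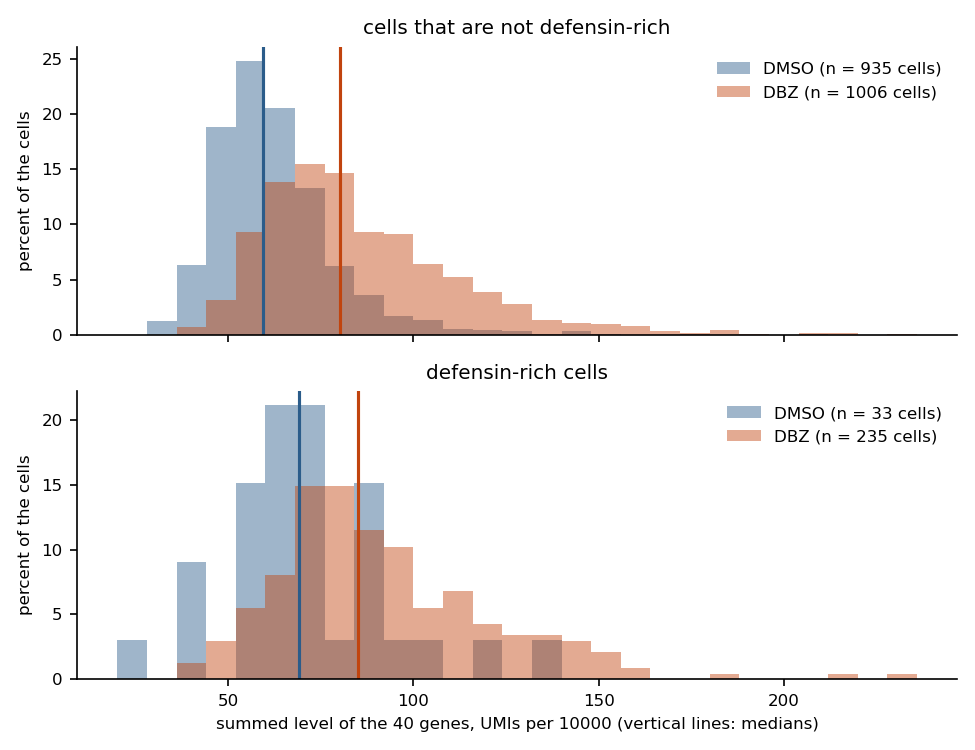
Distribution over cells of the summed level of the 40 genes, in UMIs per 10000, by library, for cells that are not defensin-rich (top) and defensin-rich cells (bottom), as percent of the cells of each group. Vertical lines mark the medians, 80.2 and 59.4 at the top and 85.0 and 69.2 at the bottom for DBZ and DMSO.

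Enteroendocrine and goblet markers were also higher with DBZ in the cells that remained, while Paneth markers other than defensins (8 of 10 in the table) were at a mean sum of 15.6 and 16.8. The median Paneth sum per cell was 4.01 with DBZ and 2.82 with DMSO, with ranges of 0 to 547 and 0 to 749. Of the 8 Paneth genes, 6 were higher with DBZ, beside 63.2% of all genes in all cells and 65.7% without defensin-rich cells. The enteroendocrine list (17 of 17 genes in the table, all 17 higher with DBZ) summed to a mean of 19.7 in the DBZ library, with a range of 0 to 3453, and to 4.79 in the DMSO library, with a range of 0 to 1803. Cck, Gcg and Gip were at 0 in every DMSO cell. The goblet list (8 of 11 in the table, all 8 higher) summed to 4.25 (0 to 248) and 0.550 (0 to 47.6), with Muc2, Ccl9, Atoh1 and Spdef at 0 in DMSO cells. Leaving out the granin-rich cells as well (at least 10 summed Chga, Chgb and Scg UMIs per 10000) gave a summed change of 0.45 and 12 members at 0.5 or more. The part of goblet transcripts in the result was not tested. Mitosis markers were lower with DBZ, at 2.85 against 4.10, and without the cells carrying at least 5 of them per 10000 the summed change was 0.47.

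Within narrower classes of cells the difference varied. Per 10000 of all UMIs, granin-rich cells had the highest summed levels of these classes, 102.0 in 68 DBZ cells and 91.6 in 18 DMSO cells, and a smaller change of 0.16 with 27 of 40 members higher beside 51.6% of all genes. Cells with mitosis markers were at 78.4 (131 cells) and 60.2 (146 cells). All remaining cells were at 85.9 (807 cells) and 62.4 (771 cells), a change of 0.46. At a like defensin level of 3 to 30 per 10000, 962 DBZ cells averaged 85.8 and 212 DMSO cells 60.9, and 39 of 40 members were higher beside 65.6% of all genes. Even there the median defensin level was 13.4 and 3.87. No DBZ cell lay under 3, where 715 DMSO cells averaged 62.8, so no comparison was possible there. At 30 to 100 the summed change was 0.14 (44 and 8 cells) with 23 of 40 members higher, near the 54.3% of all genes. At 100 to 1000 it was 0.24 (125 and 18 cells) with 32 higher, beside 59.1%, and above 1000 it was 0.52 (110 and 15 cells) with 36 higher, beside 65.5%. Members at 0.5 or more numbered 11 in granin-rich cells (beside 25.6% of all genes), 16 in mitosis-marker cells (18.1%) and 13 in the remaining cells (15%). By defensin level they numbered 16 at 3 to 30 (beside 17.4%) and 11 at 30 to 100 (32.4%). Further up they numbered 10 at 100 to 1000 (27.6%) and 19 above 1000 (35.9%). In granin-rich cells and from 30 to 1000, these shares were near or under those of all genes. Every group named with under 20 DMSO cells is thin.

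Defensin-rich cells carried more of these transcripts than the other cells of their own library. Per 10000 UMIs outside the Defa genes, the 40 genes summed to 105.5 in defensin-rich and 86.2 in other DBZ cells, and to 82.0 and 62.6 in DMSO cells, log2 differences of 0.29 and 0.39. The median member differed by 0.34 and 0.37, while the median gene lay at -0.07 and -0.12. Of the 40, 35 were higher in defensin-rich DBZ cells, beside 40.1% of all genes, and 9 by at least 0.5, beside 5.51%. In the DMSO library 36 were higher, beside 40.7%, and 16 by at least 0.5, beside 12.1%. The counting interval lay above 0 for 29 members in the DBZ and 20 in the DMSO library, and for 17 in both. For these counts, too, the share of all genes was not computed. Ssr4 differed by 0.65 in the DBZ and 0.82 in the DMSO library, P4hb by 0.54 and 1.04, Sec61b by 0.55 and 0.79, Spcs3 by 0.71 and 0.56 and Herpud1 by 0.75 and 0.98. The pooled interval lay below 0 for Pdia3 in the DBZ library (-0.13, pooled -0.10 with -0.21 to -0.0031). It also did so for Sec11a in the DMSO library (-0.39, pooled -0.44 with -0.86 to -0.046). Pdia4 was at -0.20 and -0.52 with intervals that included 0. Defensin-rich cells of the DMSO library were few and deep, with a median of 16140 UMIs against 11735 in DBZ.

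Herpud1 was higher in defensin-rich cells of both libraries. Between the libraries outside those cells its change was 0.01, while pooled UMIs gave 0.18 (0.044 to 0.31). Srp14 differed by -0.07 between defensin-rich and other DBZ cells (pooled -0.03 with -0.13 to 0.07). In the DMSO library it differed by 0.37 (pooled 0.35 with 0.067 to 0.62). Among defensin-rich cells alone, 34 of 40 members were higher with DBZ, beside 63% of all genes. The median change of the members there was 0.38, beside 0.15 for all genes. At 0.5 or more there were 10 members, a share near the 23.7% of all genes. The 6 lower members there were Srp9, Sec11c, Rpn2, Creld2, Herpud1 and Sec23b, each with an interval that included 0.

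**Figure D4:**
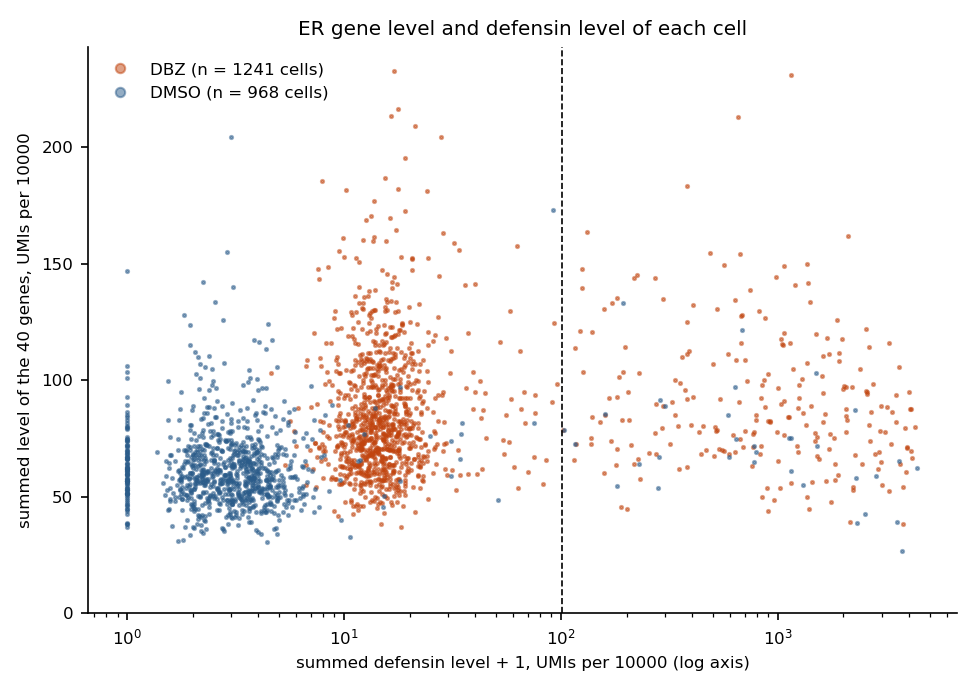
Summed level of the 40 genes against the summed defensin level plus 1 (log axis), both in UMIs per 10000, with 1 point per cell. The dashed line marks the defensin-rich boundary of 100, and DBZ cells left of it sit to the right of and above most DMSO cells.

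Within a library the members did not move as 1 block. Over cells that were not defensin-rich, Pearson correlations of log values between pairs of the 37 members seen in at least 25% of cells averaged 0.094 in the DBZ library (1006 cells) and 0.055 in the DMSO library (935 cells), beside 0.0071 and 0.0068 over pairs of all 5478 such genes. These are descriptions across cells that share a library and differ in depth. The folding enzymes and lectins were the tightest group, with a mean of 0.28 and 0.15 over 15 pairs. Pdia6 and Calr reached 0.48 in the DBZ and 0.31 in the DMSO library, and Sdf2l1 and Manf 0.45 in the DBZ library. The ER export genes averaged 0.024 and 0.015, and such weak values in sparse counts are no finding.

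**Figure D5:**
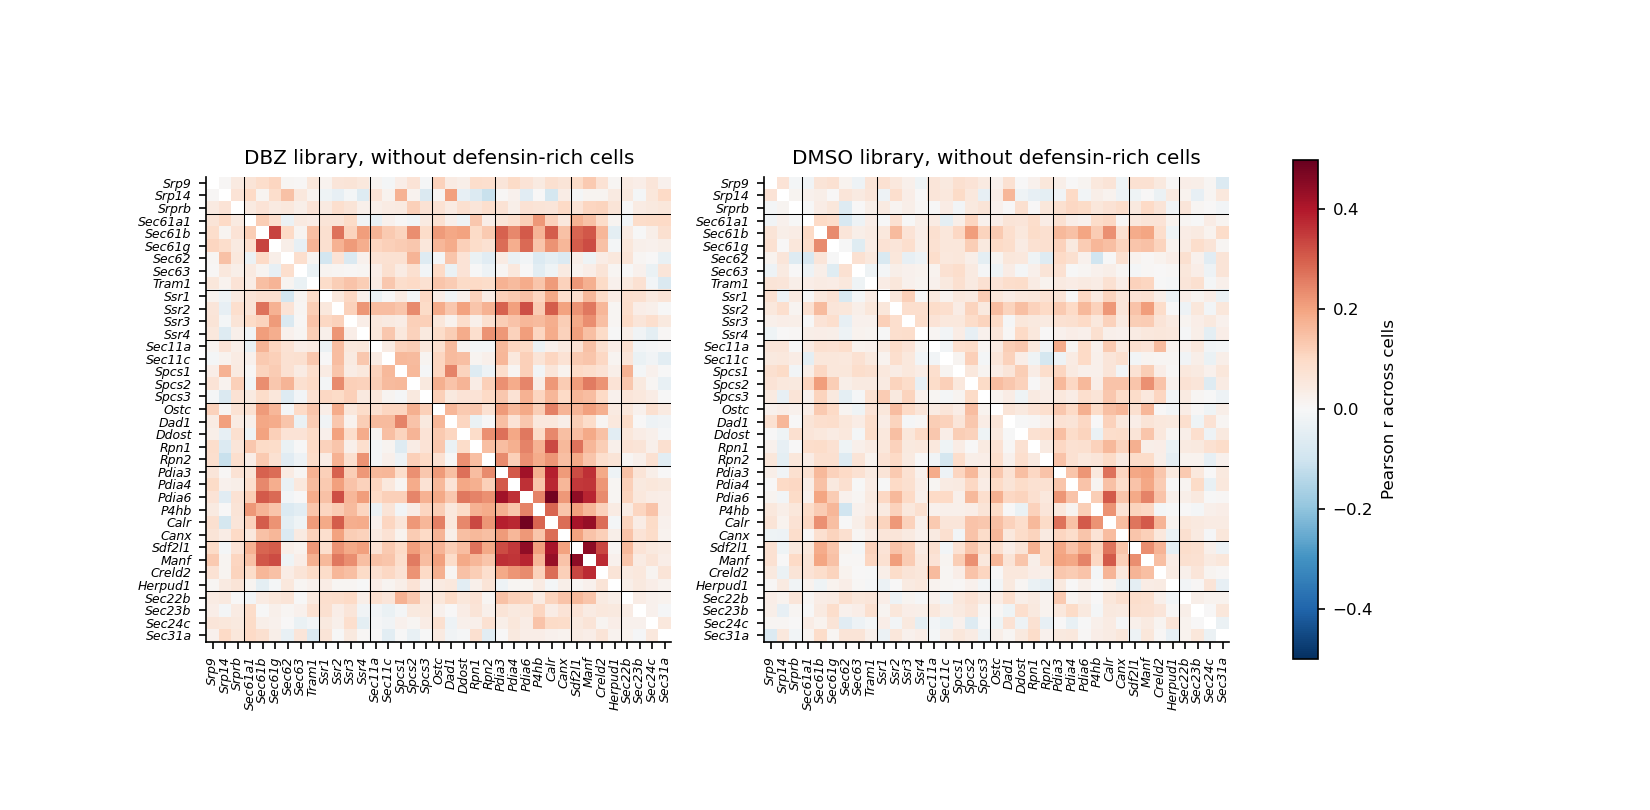
Pearson correlation across cells that are not defensin-rich, for pairs of the 37 members seen in at least 25% of cells, in each library. Black lines separate the role groups. The highest pairs were Pdia6 with Calr, Sdf2l1 with Manf and Pdia6 with Sdf2l1 in the DBZ library. In the DMSO library they were Calr with Manf, with Pdia6 and with Pdia3.

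The tight group includes genes with the ER stress response element, ERSE, a promoter motif of unfolded protein response targets, so their promoters are shown. RefSeq windows (GRCm38.p6, from 250 bases before to 50 after the start) were found for 32 of the 40 members and searched on both strands. ERSE was read as CCAAT and CCACG with 9 bases of any kind between them, ERSE-II as ATTGG and CCACG with 1 base between them, and the core of the UPRE element as TGACGTGG. ERSE and ERSE-II share CCACG, and no member window matched more than 1 of them. ERSE was in 4 of the 32 members (12.5%) and in 0.137% of all 27025 genes with a window. Among other ER genes with a window it was in 5 of 96. The matches read as follows in the motif's direction, with its fixed letters in capitals.
Calr: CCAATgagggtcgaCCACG
Canx: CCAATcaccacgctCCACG
Creld2: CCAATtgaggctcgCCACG
Pdia6: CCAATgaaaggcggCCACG
Hspa5: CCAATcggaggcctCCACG
Dnajc3: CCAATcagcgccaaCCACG
Hsp90b1: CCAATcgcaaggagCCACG
Hsp90b1: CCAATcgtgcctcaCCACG
Syvn1: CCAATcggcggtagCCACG
Derl3: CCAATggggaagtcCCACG

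The 250 bases upstream of the starts are printed below on the gene's strand for the 4 ERSE members and for Herpud1, the 1 member with ERSE-II, with the match in capitals. They lie at chr8:84846932-84847181 (Calr, minus strand), chr11:50325674-50325923 (Canx, minus), chr15:88819396-88819645 (Creld2, plus), chr12:17266339-17266588 (Pdia6, plus) and chr8:94386179-94386428 (Herpud1, plus).
Calr: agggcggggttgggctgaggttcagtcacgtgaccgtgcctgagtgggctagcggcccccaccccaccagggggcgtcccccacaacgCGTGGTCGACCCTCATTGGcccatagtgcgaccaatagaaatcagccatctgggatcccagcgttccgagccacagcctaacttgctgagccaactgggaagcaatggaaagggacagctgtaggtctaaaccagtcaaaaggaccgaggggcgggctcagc
Canx: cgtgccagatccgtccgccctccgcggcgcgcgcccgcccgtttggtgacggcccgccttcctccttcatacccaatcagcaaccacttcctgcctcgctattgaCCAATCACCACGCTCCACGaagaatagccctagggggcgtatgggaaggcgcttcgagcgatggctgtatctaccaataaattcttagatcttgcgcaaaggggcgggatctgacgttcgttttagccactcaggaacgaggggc
Creld2: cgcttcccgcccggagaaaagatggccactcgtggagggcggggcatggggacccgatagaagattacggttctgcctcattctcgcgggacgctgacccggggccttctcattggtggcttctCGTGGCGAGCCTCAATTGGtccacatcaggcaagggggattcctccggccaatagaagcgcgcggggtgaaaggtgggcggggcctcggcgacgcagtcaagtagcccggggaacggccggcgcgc
Pdia6: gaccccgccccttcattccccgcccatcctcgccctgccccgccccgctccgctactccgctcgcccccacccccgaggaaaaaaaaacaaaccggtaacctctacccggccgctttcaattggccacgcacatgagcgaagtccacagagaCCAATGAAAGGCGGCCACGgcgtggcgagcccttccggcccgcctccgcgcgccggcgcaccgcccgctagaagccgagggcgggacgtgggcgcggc
Herpud1: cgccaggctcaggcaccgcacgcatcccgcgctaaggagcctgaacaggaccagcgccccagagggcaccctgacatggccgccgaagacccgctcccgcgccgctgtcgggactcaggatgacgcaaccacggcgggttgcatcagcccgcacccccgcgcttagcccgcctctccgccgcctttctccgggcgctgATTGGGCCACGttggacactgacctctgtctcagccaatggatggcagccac

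Counted with the start as 0, the ERSE matches begin at -162 in Calr, -145 in Canx, -126 in Creld2 and -98 in Pdia6, and the ERSE-II match of Herpud1 at -52. In Calr and Creld2 the element lies on the opposite strand, so CCACG is printed as CGTGG. The 4 ERSE members had a mean pair correlation of 0.27 in the DBZ and 0.16 in the DMSO library over 6 pairs, against 0.080 and 0.047 over 528 pairs of the other 33 members. Those 33 include members without a window, whose ERSE state is unknown. Of the ERSE members, Calr, Canx and Pdia6 belong to the folding enzymes and lectins, whose 15 pairs averaged 0.28 and 0.15. Single pairs overlapped, from 0.12 to 0.48 for the 4 and from -0.11 to 0.45 for the 33 in the DBZ library. In the DMSO library they ran from 0.053 to 0.31 and from -0.099 to 0.23. Whether the motif has a part in this was not tested. The changes of the 4 ERSE members between the libraries, from 0.28 (Canx) to 0.57 (Calr) with a median of 0.45, lay inside the range of the 28 members with a window and no ERSE match, whose median was 0.42. A match is a description of the letters and not a binding site. UPRE was found in Sec23a and Sec24d, 2 of the 32 members (6.25%), beside 0.714% of all genes and 8 of 96 other ER genes. ERSE-II was in 1 of the 32 members, beside 0.0444% of all genes and 2 of 96 other ER genes.

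Outside the 40, the genes whose levels followed the members' sum most closely began with a pair of ER chaperones. Among 4611 genes that are no members and were detected in 25% or more of cells in both libraries, Hspa5, the lumenal Hsp70 BiP, came first (r = 0.51 across DBZ and 0.38 across DMSO cells). It was followed by Hsp90b1 (0.50 and 0.34), Dnajb11 (0.29 and 0.26), Slc35b1 (0.28 and 0.26), Ppib (0.40 and 0.26), Spint2, Tmed9, Tmed10, Sep15 and Xbp1 (0.26 and 0.22). All these values are shares of 1 total per cell, so a larger share of one set lowers the others.

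A wider set of 118 ER genes, 114 of them in the table, was less uniform than the 40. It had 91 genes higher and 23 lower with DBZ, beside 63.2% higher among all genes, with a median of 0.22. There were 16 at 0.5 or more and 1 at -0.5 or less, and the first is a share near the 12.7% of all genes. Without defensin-rich cells 90 were higher, beside 65.7%, with a median of 0.23. There, too, 16 were at 0.5 or more, beside 14.4%, and 1 at -0.5 or less, beside 5.73%. Both sets were chosen with results of these libraries known, so their difference is a description. Hspa5 was at 3.89 and 3.11 (0.32) and Hsp90b1 at 4.42 and 3.75 (0.23). Ero1l, the oxidase that recharges protein disulfide isomerase and a hypoxia gene, was the 1 gene at -0.5 or less. It was at 0.779 with DBZ and 2.22 with DMSO (-1.45, pooled -1.46 with -1.55 to -1.36). Fkbp11 had -0.31 (-0.49 without defensin-rich cells), Dnajc10 0.64 and Dnajb11 0.49. The list of other folding genes had 13 of 19 higher and 6 lower, near the 63.2% of all genes. Its summed change was 0.11, the lowest of the lists outside the 40.

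Of 15 sensors and factors of the unfolded protein response, 11 were higher and 4 lower with DBZ, beside 63.2% higher among all genes. There were 5 at 0.5 or more, beside 12.7%, and the median was 0.32. Xbp1, the factor that widens the ER of secretory cells, was at 2.15 and 1.26 (0.75), and 0.78 without defensin-rich cells. Ern1, the gene of its activator IRE1, had 0.72. Atf4, the factor of the translation-control branch, was lower, at 1.25 and 1.48 (-0.23, pooled -0.30 with -0.39 to -0.22). Creb3l4 had -0.31 with an interval that included 0, and Ddit3, the gene of CHOP, 0.31.

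The counts higher in the remaining lists stand beside 63.2% of all genes. ER-associated degradation had 16 of 16 genes higher, with Edem3 at 0.70 and Syvn1 at 0.62 on top and Ufd1l (0.13) and Selk (0.15) lowest. Glycosylation genes had 14 of 16 higher, led by Ganab (0.56) and Magt1 (0.53), with Krtcap2 (-0.08) and Alg5 (-0.01) lowest. Without defensin-rich cells Krtcap2 was at -0.41. Other export and retrieval genes had 23 of 30 higher, among them Copa (0.77) and Tmed3 (0.59), with Lman1 (-0.12) and Sar1b (-0.11) lowest. Other targeting and insertion genes had 14 of 18 higher, with Emc1 at 0.59 and Srp72 at 0.30, and Emc6 (-0.17) and Emc4 (-0.05) lowest.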

How the data were processed

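Single cells were captured on a droplet chip aiming at 3000 cells per sample and sequenced to a mean of 113705 (DBZ) and 115754 (DMSO) reads per cell, per the labels. Per the submitters' processing notes, reads were handled with Cell Ranger 2.1.1, Seurat and mm10. No source used here states the cell filters, annotation or strand setting. Values in the deposited table are natural logs of 1 plus UMIs scaled to 10000 per cell, since exp(value) - 1 summed to 10000 in every cell. All values above 0 were whole multiples of 1 step per cell (tolerance 0.01), which recovers UMIs. Columns named CTRL and GSI were read as DMSO and DBZ from the meaning of the names. No row lacked a gene name.

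Levels, pooled UMI ratios with exact conditional 95% intervals, and shares were computed with numpy 2.4.6, scipy 1.17.1 and pandas 2.3.3. Cells are not replicates, so no count model or p-value was used. The members, the lists, the pseudocount and the defensin boundary were chosen with earlier results of these data known. Members named in full are those with a change of at least 0.5 and the highest and lowest of each role. Of the other lists, the 2 highest and 2 lowest genes seen in at least 10% of cells are named, with Hspa5, Hsp90b1, Xbp1, Atf4, Ddit3 and Hes1. The mitosis and depth ranges were chosen after the data were seen. Doublets were not called, and an alternative left out the 5% deepest cells of each library. Coordinates are from GENCODE M21 (GRCm38, the same assembly as mm10). On simulated cells over 13373 genes, the true ratio lay inside the interval for 97% of 100 genes set 1.5-fold higher, for 95% of 100 set 1.5-fold lower and for 95.1% of 8019 left as they were. Every simulated cell was drawn from 1 pooled DMSO profile, with no differences between cells or libraries beyond the set changes. The step therefore checks how the interval is calculated, and not its coverage in the real, mixed cells.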

Additional observations from a re-analysis of the deposited data

How the results depend on the processing

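No paired analysis was possible because each group has 1 library and the results come from no test. For the same reason no library could be left out. The summed change (0.47 in all cells, 0.46 without defensin-rich cells) and the median change (0.42 in both) stayed above 0 under every alternative run. They moved by more than the counting error as follows. With a pseudocount of 0.5, the medians were 0.28 and 0.26, and the members at 0.5 or more numbered 6 and 7, against 14 and 12, while all genes at 0.5 or more came to 2.07% and 2.32%. Per 10000 UMIs outside ribosomal protein and mitochondrial genes, the summed changes were 0.35 and 0.35, the medians 0.30 and 0.31 and those members 7 and 7, beside 9.01% and 10.8% of all genes. Centred on the median gene, the values were 0.36 and 0.33, 0.31 and 0.28, and 6 and 7, beside 7.84% and 8.26%. Per 10000 UMIs outside Defa genes, the summed change in all cells was 0.51.

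Members whose sign turned were Herpud1, Sec22b and Sec23a. In all cells, Herpud1 had -0.047 and Sec23a -0.0014 outside ribosomal protein and mitochondrial genes, and -0.023 and -0.0099 when centred. Without defensin-rich cells, Herpud1, Sec22b and Sec23a had -0.10, -0.022 and -0.022 on the first scale and -0.12, -0.059 and -0.062 on the second. Herpud1 also had -0.019 without the 5% deepest cells, -0.069 without mitosis-marker cells (chosen after seeing the data) and -0.0024 with the defensin boundary at 300. Of 1160 single-member values under alternatives, 1003 stayed within their counting error, 144 moved beyond it with the same sign and 13 changed sign. The cause was not tested. A pseudocount of 0.01, pooled UMIs, thinning, other detection filters, a defensin boundary of 30 or 300, and leaving out granin-rich or deepest cells moved no sum or median beyond its counting error and no count by over 1.5 times. The same held for 4 alternatives chosen after seeing the data: leaving out shared barcodes, each member's highest 1% of cells or mitosis-marker cells, and adding 4 Gm genes to the Defa sum.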
